A study of Mus musculus with 35 samples.

Results

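The genes described here encode the proteins of the cytosolic ribosome in single cells of the mouse small intestine. Members were taken by symbol alone: Rpsa, the stalk genes Rplp0, Rplp1 and Rplp2, and every Rpl or Rps name followed by digits and at most 1 closing letter (a, x or l), without the Rps6k kinases and without pseudogene names. This gave 80 members, 31 of the small and 49 of the large subunit including the stalk, of 23538 genes in the deposited tables, and each of the 80 had at least 1 count. The paralog Rps4l was not among the symbols.

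Ribosomal proteins and ribosomal RNA together form a small subunit, which reads the messenger RNA, and a large subunit, which joins the amino acids. The acidic P proteins form a stalk on the large subunit that recruits elongation factors. Most ribosomal protein messenger RNAs begin with a 5′ terminal oligopyrimidine tract (TOP), a cytosine followed by a run of pyrimidines, through which translation of these messages responds to growth signals. In the intestinal crypt, Lgr5-positive stem cells divide and feed a proliferating progenitor zone, whose progeny become absorptive enterocytes or secretory goblet, Paneth, enteroendocrine and tuft cells.

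Single cells were sorted into 96-well plates and read by CEL-seq, which counts 1 tag near the 3′ end of each messenger RNA with a 4-base random barcode, so a count is not divided by gene length. All mice were C57BL/6; the sources used here do not give their ages. Organoids, which are crypts grown in Matrigel with EGF, R-spondin I and Noggin, came from 1 mouse per genotype: wild-type (unsorted cells, 2 passages), Reg4-dsRed-knock-in (cells positive for the reporter of Reg4, a gene of enteroendocrine and other secretory cells, 2 passages) and Lgr5-GFP-DTR (Lgr5-positive cells, 1 library). Cells taken straight from the intestine were Lgr5-EGFP-positive (2 plates) or YFP-positive progeny of Lgr5 cells (5 plates), the latter from an Lgr5-Cre mouse with a loxP-blocked YFP in Rosa26, 5 days after label induction. The replicates of an organoid group are passages of the same culture and those from the intestine are plates whose animals are not stated, so the p-values reflect variation among passages or plates alone. Some libraries ran on a HiSeq 2500 and some on a NextSeq 500; the labels do not say which.

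The 12 libraries held 1680 wells, of which 1209 reached 1500 counts and were kept, 35 to 276 per library. Kept totals ran from 287001 to 2860636 counts per library, and the median well held 4608 to 13131.5 counts. The 2 Lgr5-EGFP plates stood apart from the YFP plates: their spike-in share was 0.925% and 0.948% against 6.81% to 8.84%, their median wells held 9543 and 13131.5 counts against 5576 to 7739.5, and their median wells held 3978 and 4918 genes against 2311 to 2850. The part of the spike-in gap in the differences between those groups was not tested. Lgr5-positive organoid and Lgr5-EGFP libraries had the highest summed share of 16 stem cell markers (0.3498% and 0.298% to 0.340%), above the YFP plates (0.171% to 0.236%) and the unsorted organoids (0.0811% to 0.110%), and immune and stromal marker lists stayed at or below 0.0431% and 0.0333% in every library. The Reg4-sorted libraries held more enteroendocrine marker counts than the other libraries (0.682% to 2.57%), while their Paneth (5.45% to 14.8%) and goblet (0.882% to 2.36%) marker shares overlapped those of the YFP plates (1.40% to 6.39% and 0.362% to 1.03%).

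Sequence windows around the annotated gene starts are shown because the TOP tract is the feature that ribosomal protein genes are known to share. RefSeq promoter entries (GRCm38.p6) were found for 60 of the 80 members. A tract, defined here as a C followed by at least 4 bases that are each C or T, began exactly at an annotated start in 13 members (21.7%) and within 5 bases of it in 28 (46.7%), against 3.01% and 21.2% of all 27025 genes in the table. The windows below run from 10 bases before to 20 bases from the start on the sense strand, and capitals mark the tract. The first is Rpl28, the next is Rpl31, both among the members that rose most in the YFP cells.
Rpl28, chr7:4792955-4792984, plus strand: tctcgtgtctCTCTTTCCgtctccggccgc
Rpl31, chr1:39367841-39367870, plus strand: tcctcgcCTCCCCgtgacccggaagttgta
Rpl27a, one of the members that did not pass the test between those groups, carries the longest tract of those shown.
Rpl27a, chr7:109519185-109519214, plus strand: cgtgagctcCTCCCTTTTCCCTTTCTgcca
The stalk gene Rplp2 and the paralog Rps27l, whose levels departed from those of the other members, also hold a tract in this window.
Rplp2, chr7:141447641-141447670, plus strand: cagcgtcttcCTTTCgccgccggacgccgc
Rps27l, chr9:66946076-66946105, plus strand: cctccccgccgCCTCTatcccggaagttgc
Rpsa and the 2 most abundant members, Rps12 and Rpl41, hold none within 5 bases of the annotated start.
Rpsa, chr9:120127756-120127785, plus strand: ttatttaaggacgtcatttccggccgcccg
Rps12, chr10:23787190-23787219, minus strand: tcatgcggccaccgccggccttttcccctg
Rpl41, chr10:128549149-128549178, minus strand: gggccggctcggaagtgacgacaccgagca
A match describes letters in this window only, and the annotated start need not be the start used in these cells.

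Ribosomal protein messages took a large part of each cell's counts, and that part differed between the sorts. Summed over wells, the members held 12.6% and 15.7% of counts in the 2 unsorted organoid libraries, 17.8% and 16.2% in the Reg4-sorted ones, and 23.3% in the Lgr5-positive organoid library. In cells from the intestine the share was 16.4% and 15.5% on the Lgr5-EGFP plates and lay between 19.0% and 22.7% on the 5 YFP plates (21.03% ± 1.59, SD, n = 5). The YFP plates thus lay above both Lgr5-EGFP plates and both unsorted organoid libraries without overlap. The Lgr5-positive organoid library had the highest summed share of the 12, but by the mean of wells YFP plate 4 was higher (24.25% against 23.44%). The share is a sum over the members and was given no test, and fewer cells of a type cannot be told apart from less message per cell in such sums.

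Wells of 1 library differed far more than counting error allows. The variance between wells was 32.5 to 217 times what binomial counting gives, lowest on Lgr5-EGFP plate 1 and highest in unsorted organoid passage 1. In that passage the wells ran from 3.41% to 28.6% with a median of 8.76%, below its summed share of 12.6%, and its deepest wells, when ranked by depth and split into 3 equal sets, held a median of 14.4% against 7.17% in the shallowest set. Well medians were 15.6% in unsorted passage 2, 17.8% and 10.5% in the Reg4-sorted passages, 23.8% in the Lgr5-positive organoid library, 17.3% and 15.8% on the Lgr5-EGFP plates and 20.1% to 24.1% on the YFP plates. The Lgr5-positive organoid wells were the narrowest of the organoid libraries, with an SD of 3.77 percentage points against 4.68 to 6.76 in the others. The plot of shares per well shows that spread.

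**Figure D1:**
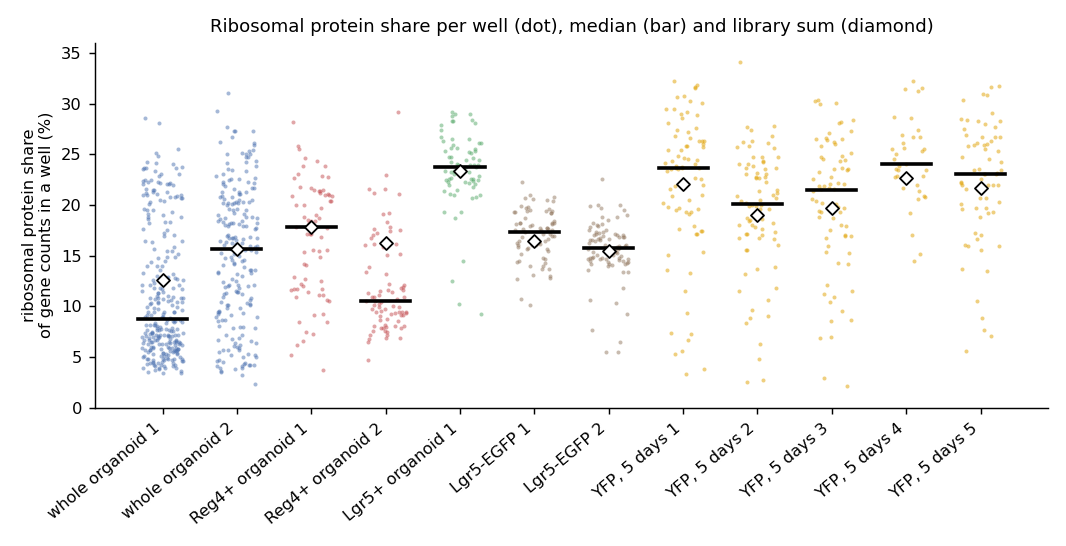
Share of each well's counts held by the 80 ribosomal protein genes (y axis, percent) in the 12 libraries (x axis, grouped by sort); each dot is a kept well, the bar is the median well and the diamond is the share summed over the library. The diamonds run from 12.6% in unsorted organoid passage 1 to 23.3% in the Lgr5-positive organoid library, and the 5 YFP diamonds lie between 19.0% and 22.7%.

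The parts of both subunits in the share differed little between libraries, and that of the stalk more. Small-subunit genes gave 41.6% to 44.0% of member counts, large-subunit genes outside the stalk 50.7% to 54.7%, and the 3 stalk genes 2.74% to 5.75%. The stalk share was lowest on YFP plate 5 (2.74%) and in the Lgr5-positive organoid library (2.78%), and highest in unsorted passage 2 (5.75%).

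Levels below are in CPM, counts scaled to library size with TMM factors, which adjust each library for its overall composition. Of the 80 members, 74 had a mean of at least 50 CPM and 68 of these lay between 1000 and 5000, so that no member dominated: the 5 highest together held 13.2% of the member counts. Over the 12 libraries the coefficient of variation of those 74 ran from 16.2% (Rpsa) to 91.8% (Rplp2) with a median of 25.8%. After Rplp2 the most variable of them were Rpl31, Rpl34 and Rpl28 (43.6%, 42.1% and 40.5%). Many members have near-identical processed copies in the genome (59 members have at least 1 annotated pseudogene of the same name, up to 24 for Rpl31 and Rps12), and the sources used here do not say how reads were split between a gene and its copies. The positions of all 80 were found in the GENCODE M21 annotation, on 19 chromosomes.

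Among the small-subunit proteins, Rps12 was the most abundant member. It had 4202 and 5331 CPM in the unsorted organoid passages, 7555 and 5325 in the Reg4-sorted passages, 7500 in the Lgr5-positive organoid library, 4696 and 4587 on the Lgr5-EGFP plates and 5593 to 7150 (median 6180) on the YFP plates. The Lgr5-EGFP plates lay below all other libraries except unsorted passage 1. Rpsa, a small-subunit protein also known as a laminin receptor, had 2853 and 3896 CPM in the unsorted passages, 5242 and 3644 in the Reg4-sorted ones, 5145 in the Lgr5-positive organoid library, 3929 and 3952 on the Lgr5-EGFP plates, and 4658, 4846, 4772, 4638 and 4110 on YFP plates 1 to 5. Its Lgr5-EGFP and YFP values did not overlap but were closer than those of most members. Rps27l, the p53-inducible paralog of Rps27, sat lower, between 300.45 and 636 CPM, and its parent gene Rps27 was counted at 0 to 14.8 CPM only.

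In the large subunit the most abundant member was Rpl41, the shortest ribosomal protein. It had 4998 and 5412 CPM in the unsorted passages, 6590 and 4289 in the Reg4-sorted ones, 6421 in the Lgr5-positive organoid library, 4240 and 3424 on the Lgr5-EGFP plates, and 5408 to 7687 (median 7004) on the YFP plates. All YFP values lay above both Lgr5-EGFP values. Rpl27a, also among the 5 most abundant members, had 2901 and 3400 CPM unsorted, 4954 and 3192 Reg4-sorted, 4808 in the Lgr5-positive organoid library, 3678 and 3573 on the Lgr5-EGFP plates and 3848 to 5292 (median 4508) on the YFP plates. Its YFP plates again lay above the Lgr5-EGFP plates, the lowest by a small margin.

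The other 6 members, below 50 CPM on average, were almost uncounted. Rpl30 had 8.40 to 55.4 CPM, Rpl26 2.30 to 25.7 and Rps27 at most 14.8, although these 3 encode core subunit proteins, and Rpl30 and Rpl26 have 9 and 6 annotated pseudogenes of their name. The tissue-restricted paralogs Rpl39l and Rpl3l reached at most 2.65 and 1.39 CPM. Rpl10l, the retrogene paralog of Rpl10 known from the testis, had 61.6 CPM in Reg4-sorted passage 2 (66 counts, 55 of them in a plate of 72 kept wells and 11 in one of 9) and at most 7.42 CPM elsewhere.

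The stalk genes did not move together across libraries. Rplp0, the scaffold of the stalk, had 2114 and 3920 CPM in the unsorted passages, 4180 and 3471 in the Reg4-sorted ones, 2261 in the Lgr5-positive organoid library, 2882 and 2866 on the Lgr5-EGFP plates and 4950, 5138, 5436, 3695 and 2514 on YFP plates 1 to 5. Rplp1, 1 of the 2 acidic proteins that bind it, had 3078 and 4762, 4544 and 4551, 3452, 3158 and 2844, and 5867, 5030, 4944, 4831 and 3754 CPM in the same order. For both genes YFP plate 5 was the lowest of its group, and for Rplp0 it fell below the Lgr5-EGFP plates.

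Rplp2, the partner of Rplp1, had the largest spread of the 74. It had 112 and 462 CPM in the unsorted passages, 758 and 834 in the Reg4-sorted ones, 83.0 in the Lgr5-positive organoid library, 310 and 278 on the Lgr5-EGFP plates, and 1285, 1351, 1299, 18.6 and 15.2 on YFP plates 1 to 5. YFP plates 1 to 3 had the highest values of all 12 libraries and plates 4 and 5 the lowest, with 5 counts in 3 of 35 wells and 9 counts in 8 of 68 wells. The gap held within cluster 9 of the wells from the intestine, described with the clusters below, where Rplp2 had 1590, 1460 and 1519 CPM of the plain library total on plates 1 to 3 and 11.6 and 15.3 on plates 4 and 5. Within unsorted passage 1 the 3 plates also differed, with 36, 201 and 47 counts. GENCODE M21 holds no Rplp2 pseudogene of that name, but the deposited counts include an entry named Rplp2-ps1. That entry had at most 19 counts in a library (Lgr5-EGFP plate 2). It had 6, 6, 3, 1 and 0 counts on YFP plates 1 to 5. Rplp2 itself lies at chr7:141447370-141451585 in GENCODE M21, overlapping the small nucleolar RNA gene Snora52 on the same strand.

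**Figure D2:**
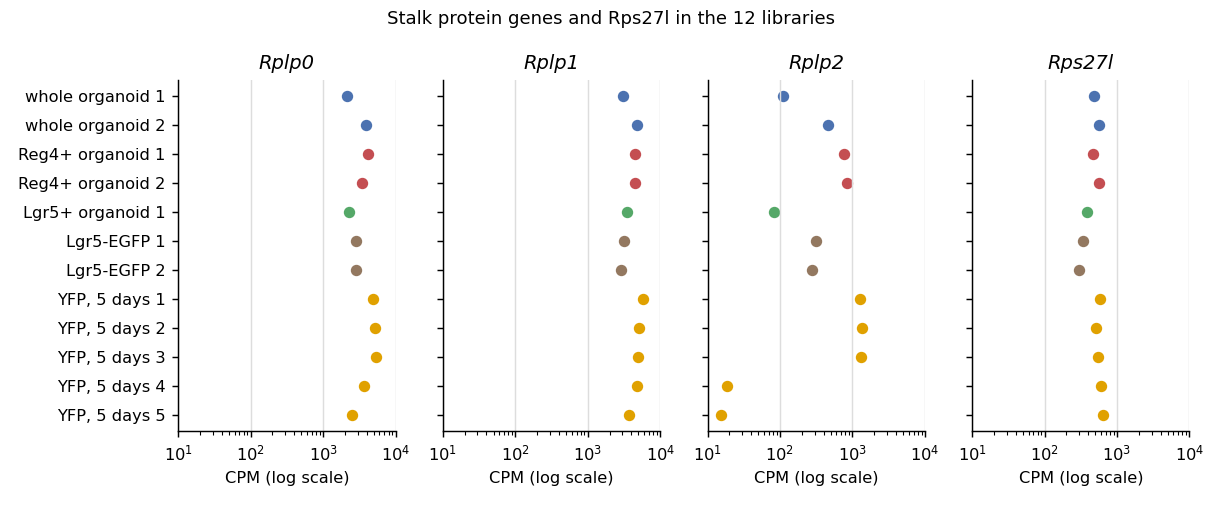
Levels of the stalk genes Rplp0, Rplp1 and Rplp2 and of the paralog Rps27l (x axis, CPM on a log scale) in the 12 libraries (y axis), 1 point per library. Rplp2 falls to 18.6 and 15.2 CPM on YFP plates 4 and 5 against 1285 to 1351 on plates 1 to 3, while Rps27l stays between 300.45 and 636 throughout.

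The comparison of YFP progeny with Lgr5-EGFP cells sets descendants of Lgr5-positive cells, taken 5 days after labelling, beside cells sorted for Lgr5 itself. Cell state, mouse line, sort, dissociation and sequencing cannot be told apart here, and the plates also differed in spike-in share and genes per well. Members rose as a body: 68 of the 77 tested were higher in the YFP cells and none lower, at an adjusted p below 0.05 in edgeR's quasi-likelihood test, against 14.7% of all 9065 genes called higher and 11% lower (25.7% in all). The called members rose by 0.45 to 1.97 on the log2 scale, and the median over the 77 was 0.86 against -0.00 over all genes. By role, 28 of 31 small-subunit genes rose (median 0.86), 39 of 43 large-subunit genes outside the stalk (median 0.83) and 1 of 3 stalk genes (median 0.71). For 71 of the 77 all YFP plates lay above both Lgr5-EGFP plates, as they did for 18% of all genes. With plain library totals in place of TMM factors the median of all genes shifted to -0.43 and that of the members to 0.43, and 44 members were called higher, beside 7.17% of all genes. With every well thinned to 1500 counts, 47 of 74 were, beside 12.4% of the genes then tested.

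Large-subunit genes were among the members that rose most. Rpl31 had 2104, 1585, 1726, 2185 and 1914 CPM on the YFP plates and 538 and 435 on the Lgr5-EGFP plates, a log2 fold change of 1.97 ± 0.18 (SE, edgeR adjusted p = 1.32e-05). Adding the counts of its pseudogene names lowered this to 1.17, and Rpl31-ps12 alone had 2819 ± 422 CPM (SD, n = 5) in YFP cells against 1616 ± 286 (SD, n = 2). The gene overlaps Tbc1d8 on the other strand.

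Rpl28 had 3259, 2766, 2796, 3766 and 2051 CPM on the YFP plates against 1001 and 950.5, a change of 1.59 ± 0.21 (edgeR adjusted p = 0.000119). Rpl32 had 3215, 2740, 3071, 3603 and 3525 CPM against 1429 and 1214, a change of 1.30 ± 0.15 (edgeR adjusted p = 6.24e-05). In both genes the lowest YFP plate lay well above the higher Lgr5-EGFP plate.

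The 9 members that did not pass the test were Rpl26, Rpl27a, Rpl30, Rpl34, Rplp0, Rplp2, Rps15a, Rps27 and Rpsa. Rpsa differed by 0.23 ± 0.12 (edgeR adjusted p = 0.165) and by -0.20 with plain library totals. Rpl27a differed by 0.32 ± 0.13 (adjusted p = 0.0990), with 4497 ± 538 CPM (SD, n = 5) against 3626 ± 74.2 (SD, n = 2), and Rpl34 by 0.14 ± 0.22 (adjusted p = 0.705). Of the stalk genes, Rplp1 rose by 0.71 ± 0.16 (adjusted p = 0.00459), Rplp0 differed by 0.61 ± 0.24 (0.0768) and Rplp2 by 1.46 ± 1.09 (0.364). The Rplp1 call ended with library totals (adjusted p = 0.142) and with wells thinned to 1500 counts (0.0985). Rps27l rose by 0.86 ± 0.15 (adjusted p = 0.000961), with 0.272 after thinning.

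Whether single members departed from the rest was tested with the summed member counts as the library size, a scale on which a uniform rise of all members gives 0. On it 10 of 77 members were higher in YFP cells and 11 lower, beside 3.98% higher and 65.4% lower of all genes (69.4% in all). Among the higher were Rpl31 (1.15 ± 0.13, edgeR adjusted p = 2.43e-05), Rpl28 (0.76), Rpl32 (0.47), Rps4x, Rpl3, Rps3, Rpl12, Rps26 and Rpl13a. Lower were the thinly counted Rps27 (-1.49) and Rpl30 (-0.83), and Rpl34 (-0.67), Rpsa (-0.59 ± 0.12, adjusted p = 0.000893), Rpl27a (-0.51), Rps15a (-0.40), Rpl27, Rps9, Rps12, Rpl4 and Rpl11. Both groups held genes of both subunits.

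**Figure D3:**
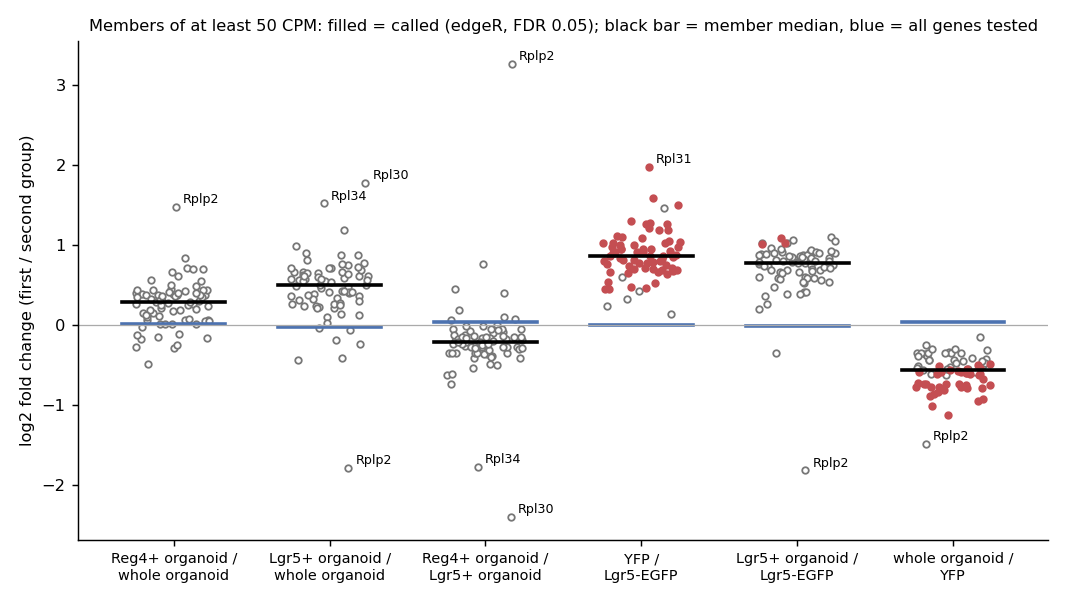
Log2 fold change of each member of at least 50 CPM (y axis) in the 6 comparisons (x axis); filled points passed an edgeR adjusted p of 0.05, the black bar is the median of the members and the blue bar that of all genes tested. The members' median lies at 0.86 for YFP against Lgr5-EGFP cells and at -0.57 for unsorted organoid against YFP cells, with the medians of all genes near 0.

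Genes of related lists moved in different directions in this comparison. Of 18 translation genes whose messages also carry a TOP tract, 12 rose and none fell (median 0.70), among them the elongation factor Eef1a1 (0.97, edgeR adjusted p = 0.000115; 7347 ± 205 against 3764 ± 601 CPM), Tpt1, the translationally controlled tumour protein (1.26, 5.50e-05), and Gnb2l1, which encodes the small-subunit protein RACK1 (1.01, 0.000105). Fau, which encodes a ribosomal protein fused to a ubiquitin-like sequence and lies outside the naming rule, rose by 1.33, with 3 of 6 such genes called. In contrast, of 25 ribosome biogenesis genes 1 rose and 14 fell (median -0.57). Polr1c, a subunit of RNA polymerases I and III, was the 1 that rose (0.54), and Nop58, a core protein of box C/D small nucleolar particles, fell by 1.12 ± 0.15 (adjusted p = 0.000140); both were chosen after their values were seen. The 3 most abundant of that list, Ncl, Fbl and Nop10, differed by 0.04, 0.36 and 0.34 without passing the test. Of 76 mitochondrial ribosomal proteins 17 rose and 1 fell (median 0.21). Of 10 genes known to control ribosomal protein synthesis, 2 fell, namely the translation repressor Eif4ebp2 (-2.07) and the S6 kinase Rps6kb1 (-0.64), while Larp1, Myc and Eif4ebp1 differed by -0.16, -0.44 and -0.02 and did not pass.

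Lgr5-positive cells from organoids and from the intestine were compared next, with 1 library against 2 plates and the spread taken from a fit over all 5 groups. Culture, mouse line, dissociation and sequencing cannot be told apart in this comparison. Members were again higher in 1 direction, but few passed: 3 of 78 were called higher and none lower, beside 0.762% of all 10632 genes called higher, or 1.44% in all. The members' median was 0.78 against -0.01 over all genes, 62 were higher at an unadjusted p below 0.05 (5.93% of all genes), and in 74 the organoid library lay above both plates (37.9% of all genes). The 3 called were large-subunit genes: Rpl32 (2814 CPM against 1429 and 1214; 1.09 ± 0.24, edgeR adjusted p = 0.0406), Rpl3 (2380 against 1281 and 1063; 1.02 ± 0.23, 0.0411) and Rpl23a (3386 against 1731 and 1627; 1.01 ± 0.23, 0.0414). DESeq2 called 31 (1.17% of all genes), and 0 were called with library totals, with thinned wells or without either Lgr5-EGFP plate. Furthest above the members' median beside Rpl32 were Rpl31 (1.10, adjusted p = 0.0792) and Rpl37 (1.06). The stalk genes lay furthest below, with Rplp2 at -1.82 ± 1.76 (0.785), Rplp0 at -0.35 (0.849) and Rplp1 at 0.20 (0.880); Rplp2 passed the test as lower when only these groups were fitted and when no filter on low counts was used. This comparison shares the Lgr5-EGFP plates with the one before, so the side-by-side values of Rpl32 (1.30 and 1.09) or Rpl31 (1.97 and 1.10) are not independent.

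Unsorted organoid cells had lower levels than YFP progeny from the intestine, a comparison of culture with tissue that also differs in the mix of cell types. Mouse line, dissociation and sequencing cannot be told apart from culture here either. Of 78 members 41 fell and none rose, against 9.48% of all genes called lower and 13.4% higher (22.9% in all). The fall of the called members ran from -1.78, in the thinly counted Rpl26, to -0.49. Among members of at least 50 CPM the largest called fall was that of Rpl37, given below. The members' median was -0.57 against 0.04 over all genes. In 63 members both organoid passages lay below all YFP plates, as in 15.4% of all genes. By role, 28 of 44 large-subunit, 13 of 31 small-subunit and 0 of 3 stalk genes fell. Without unsorted passage 1 the number fell to 10 (4.31% of genes called lower), and without passage 2 to 24 (7.64%). The marker lists moved too: the 22 enterocyte markers held 2.25% to 4.41% of counts in the organoids and 0.297% to 0.908% on the YFP plates, and the 18 Paneth markers 0.0449% to 0.588% against 1.40% to 6.39%. Their part in the member levels was not tested at the level of libraries.

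Rpl37 had 1019 and 922 CPM in unsorted organoids and 1650 to 2527 (median 2177) on the YFP plates, a change of -1.13 ± 0.22 (edgeR adjusted p = 0.00258). Rps24, mutated in some patients with Diamond-Blackfan anaemia, had 1986 and 1877 against 3430 to 4341 CPM (-1.01 ± 0.19, edgeR adjusted p = 0.00183). Rpl39, which lies close to the exit of the peptide tunnel, had 1291 and 1417 against 2003 to 3180 (-0.96 ± 0.24, edgeR adjusted p = 0.0117), and Rpl3 had 1420 and 1524 against 2664 to 2962 (-0.92 ± 0.17, edgeR adjusted p = 0.00160). In none of these did the groups overlap. Least changed were Rps27l (-0.15 ± 0.17, 0.581), Rpl36 (-0.25) and Rps23 (-0.30), with Rplp2 at -1.49 ± 1.15 (0.386), which ran from -2.84 to -0.79 when 1 library was left out. Relative to the other members, Rps24 (-0.43, edgeR adjusted p = 0.0439) and the thinly counted Rpl26 (-1.21, 0.0236) fell, where 3.64% of all genes were lower and 42.2% were called in all. In this comparison, 8 of 18 TOP translation genes and 3 of 25 ribosome biogenesis genes fell and none of either rose.

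Among organoids no member passed the test in any of the 3 comparisons, with 5 libraries in the fit. Reg4-sorted cells against unsorted cells gave 0 of 78 (6.49% of 10522 genes called; members' median 0.29 against 0.01), with 2 members higher at an unadjusted p below 0.05 (10.2% of all genes) and 0 by DESeq2. Lgr5-positive against unsorted cells gave 0 of 78 (3.62% called; 0.49 against -0.03), with 5 higher at an unadjusted p below 0.05 (7.77% of all genes) and 0 by DESeq2. The Lgr5-positive library lay above both unsorted passages in 68 members and below both in 5, against 41.1% and 41.7% of all genes. Reg4-sorted against Lgr5-positive cells gave 0 of 78 (0% called; -0.21 against 0.03), with 5 at an unadjusted p below 0.05 (10.5% of all genes) and 1 by DESeq2. For Reg4-sorted against unsorted cells the members' median was 0.21 without wells above 100000 counts. It was 0.115 with observed barcode numbers in place of estimated counts. The 3 comparisons share libraries and are not independent of each other. With 1 or 2 libraries a group, a miss does not show that levels were alike.

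With the thinly counted members set aside, Rplp2 departed furthest from the members' median in these comparisons. Its log2 difference from unsorted cells was 1.48 ± 0.59 in Reg4-sorted cells (edgeR adjusted p = 0.193) and -1.78 ± 0.79 in Lgr5-positive cells (adjusted p = 0.250). Leaving out 1 library moved the first value between 0.787 and 2.85 and the second between -2.47 and -0.41, so the size of both rests on single libraries. Between Reg4-sorted and Lgr5-positive cells it was 3.26 ± 0.86 (edgeR adjusted p = 0.336, unadjusted 0.00495). In Lgr5-positive against unsorted cells, Rps27l and Rplp0 deviated by -0.93 and -0.91 from the members' median (Rplp0 by -1.19 to -0.46 with 1 passage left out), while Rpl30, Rpl34 and Rpl39 lay 1.28, 1.03 and 0.69 above it. Rpl34, a large-subunit protein, had 99.9 and 77.8 CPM unsorted, 53.0 and 92.4 Reg4-sorted and 256.01 in the Lgr5-positive library, the highest of the 12. In Reg4-sorted against unsorted cells, Rps23 (-0.78), Rpl31 (-0.59) and Rps26 (-0.56) lay furthest below the median and Rpl39 (0.54) and Rpl4 (0.42) next above it after Rplp2. Rps23, which sits at the decoding centre, had 1137 and 1553 CPM unsorted and 958 and 957 Reg4-sorted, the former above the latter in both passages.

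Cells were then grouped by their other genes. Wells were clustered without the 80 members, separately for organoids and intestine, and a cluster was named "X-like" only where it met the marker rule. Pseudogene names of ribosomal proteins and TOP translation genes stayed in, so the clusters are not fully independent of the members. Enterocyte-like wells held a lower share than the other wells of their library in each of the 5 libraries with at least 10 such wells. It was 7.83% of counts against 17.4% in the other wells of unsorted passage 1 (137 of 276 wells), and 6.84% against 16.7% in passage 2 (12 of 209 wells). On YFP plates 1 to 3 it was 12.1% against 23.4% (13 wells), 14.8% against 19.7% (11 wells) and 11.4% against 20.7% (10 wells). The gap was -9.73 ± 0.170 percentage points in organoids (SD, n = 2) and -8.50 ± 3.25 in YFP plates (SD, n = 3). Enterocyte-like wells made up 49.6% of unsorted passage 1 and 5.74% of passage 2, the passages with summed shares of 12.6% and 15.7%. These parts depend on the naming rule, as 35.5% and 81.8% of their wells lay in clusters that met no marker rule. An unnamed cluster of 34 wells in passage 2 held 8.92%. The enterocyte markers held 4.41% and 2.25% of counts in passages 1 and 2.

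Secretory classes were not alike. In Reg4-sorted passage 1 the 45 goblet-like wells held 19.7% against 13.3% in the other wells, and the 14 Paneth-like wells 11.6% against 18.8%. The Paneth-like gap of that passage turned with the clustering, to 18.4% against 14.7% in 59 wells at resolution 0.5, and was 17.43% against 18.04% when wells were thinned before clustering. After the same thinning its goblet-like wells held 18.9% against 17.0%. No goblet-like class of at least 10 wells formed in it at resolution 0.5 or with the members kept in the clustering. In passage 2 the 49 enteroendocrine-like wells held 9.97% against 18.2% and the 18 Paneth-like wells 12.5% against 16.8%. By the median well the latter turned, with 11.8% in Paneth-like against 10.1% in other wells, in a library that held 3 very deep wells. The 21 enteroendocrine-like wells of unsorted passage 1 held 10.4% against 12.7%, but 10.7% against 8.19% by the median well, so no direction is given for the Paneth-like wells or for enteroendocrine-like wells outside Reg4-sorted passage 2. Cycling-like wells of the unsorted passages held 19.7% against 11.9% and 19.98% against 15.02%. In the Lgr5-positive organoid library the 38 cycling-like wells held 23.1% and the 31 stem-like wells 25.2%. A share is relative to all other counts of the wells, including those of the abundant products of a class.

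In the intestine the median share per cluster rose from 10.6% in Paneth-like and 13.4% in enterocyte-like wells, through 15.4% in 8 tuft-like, 16.9% in enteroendocrine-like and 17.5% in goblet-like wells, to 20.3%, 23.5%, 24.8% and 27.7% in clusters 7, 11, 9 and 10, which met no marker rule. Cluster 7 was led by Dmbt1, Rbp7 and Krt19, and cluster 9 by Ube2c, Tuba1b and Stmn1, which are genes of dividing cells. Cluster 10 was led by the pseudogene Rps19-ps3, Clca4, Fgf1 and Ifitm3, and its median well held 4291.5 counts against 7007 in cluster 9 and 11052.5 in cluster 7. The wells of the Lgr5-EGFP plates fell mostly into clusters 0, 1 and 2, at 16.0%, 17.0% and 18.2%. Library medians were taken for plates with at least 10 wells of a cluster. They ranged over 19.5% to 20.7% in cluster 7, 23.6% to 26.1% in cluster 9 and 25.95% to 29.4% in cluster 10. With only 4 wells, plate 4 had 21.1% in cluster 7. Cluster 7 thus lay below both others, while the ranges of clusters 9 and 10 met. Within each YFP plate, including plate 4 with 8 wells of cluster 10, the median of cluster 10 lay above that of cluster 9. On plates 1 to 5 they were 29.4% and 25.4%, 25.95% and 23.6%, 27.1% and 24.4%, 27.7% and 25.4%, and 28.3% and 26.1%.

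**Figure D4:**
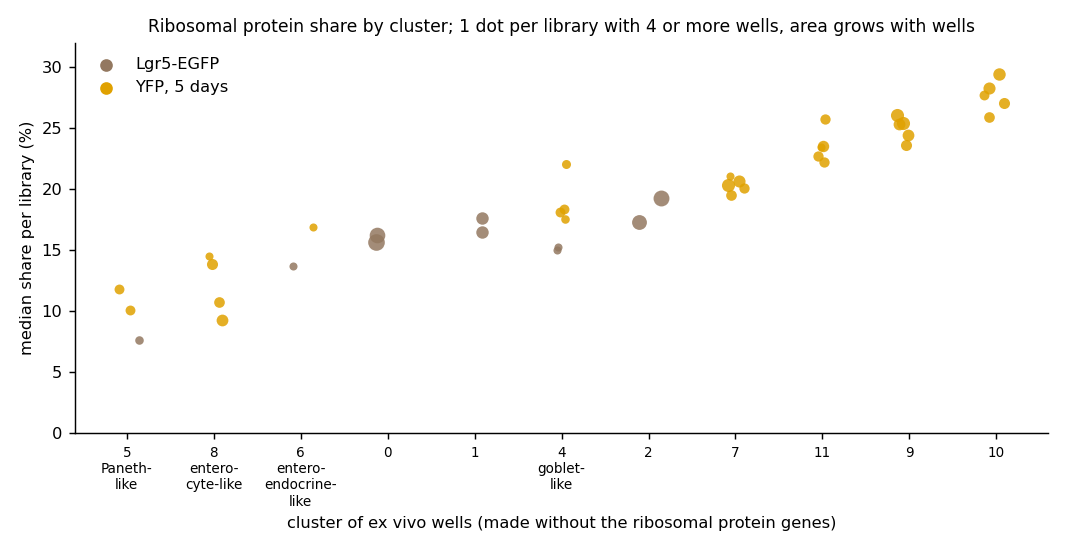
Share of counts held by the members (y axis, percent) in clusters of wells from the intestine (x axis); each dot is the value of 1 library with at least 4 wells in the cluster. Paneth-like and enterocyte-like wells lie lowest and clusters 9 and 10 highest, with medians over wells of 10.6%, 13.4%, 24.8% and 27.7%.

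Gene by gene, clusters 7, 9 and 10 were tested against the enterocyte-like cluster on sums per cluster and plate over YFP plates 1 to 3, with the plate as a block. In each cluster 73 of 74 members were higher in edgeR's test, beside 20.5%, 24.7% and 21.1% of all 2742 genes called higher, or 40.7%, 49.2% and 43.5% in all. The members' medians were 0.62, 1.01 and 1.25 on the log2 scale against 0.08, 0.08 and 0.06 over all genes. Among the 2341 genes that were neither members nor used for clustering, 19.1%, 23.7% and 20.4% were higher. The 3 contrasts share the enterocyte-like wells. Clustering was repeated without pseudogene names, genes named Gm with a number and TOP translation genes, with at least 5 wells per cluster and plate. In the clusters matched to 7, 9 and 10, 72, 73 and 73 of 74 members were then higher. Of all 2655 genes, 522, 649 and 557 were. When wells were thinned only cluster 9 could be tested, with 70 of 73 members higher beside 133 of 402 genes in all.

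The 1 member that did not rise was Rps27l in all 3 clusters, at 0.01 ± 0.19, 0.10 ± 0.20 and 0.17 ± 0.21 (edgeR adjusted p = 0.963, 0.718 and 0.526). The steepest rises included Rps19, another Diamond-Blackfan anaemia gene (0.85, 1.32 and 1.64 in clusters 7, 9 and 10), Rpl36a (0.74, 1.22 and 1.58) and Rpl12, a protein at the base of the stalk (0.78, 1.32 and 1.48). The shallowest included Rpl29 (0.45, 0.59 and 0.77) and Rpl10, which joins the large subunit last (0.33, 0.62 and 0.93). Rpsa, which did not pass between YFP and Lgr5-EGFP cells, rose here by 0.88, 1.01 and 1.23. The stalk genes rose close to the members' median, with Rplp0 at 0.61, 0.97 and 1.15, Rplp1 at 0.54, 0.87 and 1.16 and Rplp2 at 0.61, 1.03 and 1.26 on these 3 plates.

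**Figure D5:**
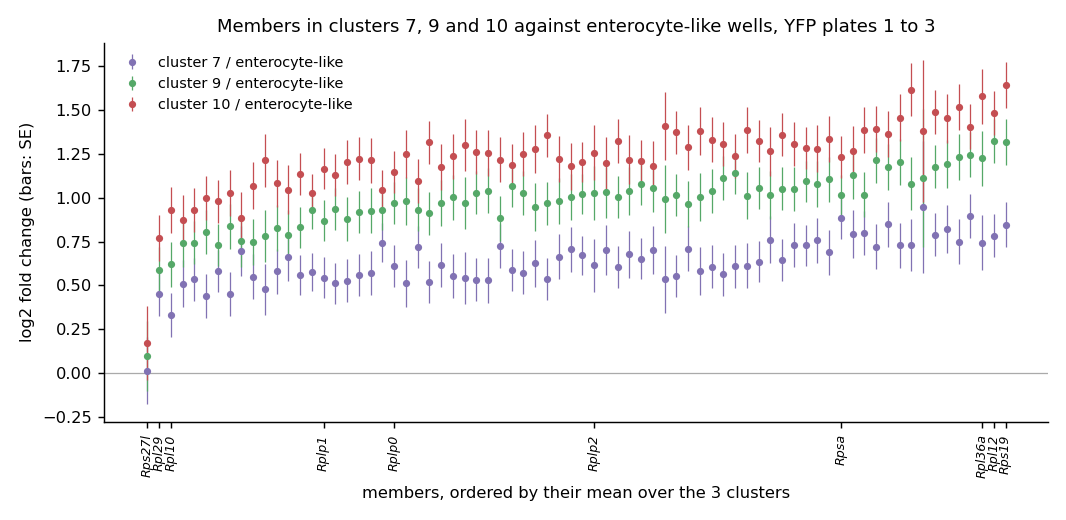
Log2 fold change of each of 74 members (points, with SE bars) in clusters 7, 9 and 10 against the enterocyte-like cluster on YFP plates 1 to 3. All members but Rps27l passed in each cluster, and Rps27l lies at 0.01, 0.10 and 0.17 while the medians are 0.62, 1.01 and 1.25.

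Other lists also moved between these clusters. Of 12 ribosome biogenesis genes tested, 9, 11 and 10 were higher in clusters 7, 9 and 10 (medians 1.26, 1.63 and 1.49), and of 18 TOP translation genes 9, 17 and 16 (medians 0.43, 0.81 and 1.12). Of 64 mitochondrial ribosomal proteins 5, 2 and 1 were higher. Ribosome biogenesis genes thus lay above the enterocyte-like wells in the same clusters as the ribosomal proteins, whereas between YFP and Lgr5-EGFP cells the 2 lists had medians of opposite sign (-0.57 and 0.86). The value of -0.57 covers 25 biogenesis genes and the cluster medians only the 12 tested there, so they rest on different gene sets.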

How the data were processed

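The submitters' processing notes name BWA 0.6.2-r126 and the mouse build mm10; the sources used here do not give the counter, annotation or filters. The deposited values are estimated counts per gene and well that the authors made from 4-base random barcodes: inverting the correction for 256 possible barcodes gave a whole number (tolerance 1e-06) for 3897264 of 3897290 values above 0, and the other 26 were at its ceiling. They were rounded per gene and well (largest change 0.495), spike-ins were left out, and wells under 1500 counts were dropped. Wells of a library were summed and tested with edgeR 4.0.16 (R 4.3.3; quasi-likelihood, TMM, filterByExpr, Benjamini-Hochberg adjustment over all genes tested); DESeq2 1.42.0 was an alternative. A standard error is the fold change divided by the root of F. Fits covered the organoid groups, the groups from the intestine, or all 5 groups for the comparisons across them. Clusters were made with scanpy 1.11.5 and igraph 0.11.9 (2000 variable genes without members, 20 components, 10 neighbours, Leiden resolution 1). For a cluster to be named, at least 3 markers of a list needed a mean at least 2-fold that of the other wells. Those markers also needed a count in at least 25% of the cluster's wells. At least 2 markers of that list had to be among its 10 leading genes, with no other list tied. The limit on leading genes was set after the clusters were seen. No doublet caller was run. The fits were tested on simulated data.

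Members and lists were chosen with earlier results of these data known. Members named in the text were, per comparison, up to 4 called members with the largest rise and fall and the 3 furthest above and below the members' median (at least 50 CPM), the 5 most abundant, the stalk, Rpsa and the paralogs; members and genes beyond these, such as those at the ends of the cluster contrasts, were chosen after their values were seen. The table of Lgr5-positive organoid cells was assigned from its name. A further 192 columns in 2 tables matched no sample's labels and were not used, and the pool-and-split and embryonic cell controls were not analysed here. A few members and related genes that this rule names are not reported here.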

Additional observations from a re-analysis of the deposited data

Results flagged for a closer look

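Among 27 values tested over the 5 YFP plates, 4 had a plate standing apart from the rest by Dixon's test at 95%, where chance alone marks about 1 in 20 groups. Rpsa was lowest on plate 5, at 4110 CPM against 4638 to 4846 on the other plates. The other cases rest on 1 or 2 counts: Rpl10l had 7.42 CPM on plate 4 against 1.39 to 2.65, Rpl39l had 2.65 CPM on plate 2 against 0 on the others, and Rpl3l had 1.39 CPM on plate 1 against 0 on the others. Rplp2, which split into 3 high and 2 low plates, is not of the kind that this test marks.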

How the results depend on the processing

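Of 223 values recomputed for the main comparisons, 175 stayed within their limits, 48 moved and 0 reversed; of 1042 for single members, 977 stayed, 27 lost and 18 gained a call, 19 moved and 1 reversed (Rpsa in YFP against Lgr5-EGFP cells, -0.198 with library totals). The cause of each move was not tested.

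Reg4-sorted against unsorted organoid cells gave 0 calls, 2 without a filter, 4 in 1 fit over all groups and 0 to 2 leaving out a library; relative to the members it gave 1 with barcode numbers and 0 to 1 leaving out a library. Lgr5-positive against unsorted cells gave 4 without a filter, 11 in 1 fit over all groups and 0 to 1 leaving out a library. Reg4-sorted against Lgr5-positive cells gave 1 by DESeq2, 5 without a filter, 3 in 1 fit over all groups and, relative to the members, 2 with barcode numbers. YFP against Lgr5-EGFP cells gave 44 with library totals and 54 to 68 leaving out a plate; relative to the members its 21 calls became 12 with thinned wells and 11 to 21 leaving out a plate. Lgr5-positive organoid against Lgr5-EGFP cells gave 31 by DESeq2, 7 higher and 1 lower (Rplp2) without a filter, 40 higher and 1 lower (Rplp2) with only those groups fitted, 1 without 3 very deep wells and 0 with library totals, thinned wells, barcode numbers or either plate left out. Unsorted organoid against YFP cells gave 10 to 33 leaving out a library, and relative to the members 0 with thinned wells, 1 with barcode numbers and 0 to 1 leaving out a library.

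Deviations of same-numbered replicates from their group means correlated weakly, at -0.145 in organoids and 0.133 and -0.0691 in the intestine. With 2 passages a group the organoid deviations mirror each other and give 1 value. Whether the replicate numbers pair the samples could therefore not be decided. With the replicate block, 71 members were called for YFP against Lgr5-EGFP cells, 4 for unsorted organoid against YFP cells, and 0 for Lgr5-positive organoid against Lgr5-EGFP cells and within organoids.

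The summed share of Reg4-sorted cells (17.00%) was 14.29% as a mean of wells, 14.25% thinned, 15.34% without very deep wells, 15.46% with barcode numbers, 19.92% without marker genes and 16.21% to 17.8% leaving out a passage. With barcode numbers it was 21.9% in the Lgr5-positive organoid library, below the 22.39% of YFP plate 4, and 15.07% on Lgr5-EGFP plates. Leaving out a library gave 12.57% to 15.66% unsorted, 15.48% to 16.43% for Lgr5-EGFP and 20.62% to 21.54% for YFP. The enterocyte-like gap in organoids was -10.58 at resolutions 0.5 and 2 alike, -9.851 to -9.611 leaving out a passage, and in YFP plates -10.29 to -7.111. A share without mitochondrial genes could not be computed, as the tables hold none, and resolution 2 gave no cluster contrast. Counts per well limit single members below about 50 CPM.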
